A study of Homo sapiens with 45 samples.

Results

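The CDK inhibitor genes encode natural brakes on the kinases that drive the cell cycle, and palbociclib (PB), a drug that inhibits CDK4 and CDK6, acts on the same step as some of them. The 8 genes described here were chosen by symbol: the CIP/KIP genes CDKN1A, CDKN1B and CDKN1C, the INK4 genes CDKN2A, CDKN2B, CDKN2C and CDKN2D, and CDKN3, a phosphatase gene that carries the same family name. They are 8 of the 29159 genes in the deposited count tables, and all 8 had reads in at least some libraries of every line.

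INK4 proteins bind CDK4 and CDK6 and keep them from their D-type cyclins, whereas CIP/KIP proteins bind whole cyclin and CDK complexes and act most strongly on CDK2. Active CDK4 and CDK6 phosphorylate RB, which frees E2F factors to switch on genes for S phase. In the sympathetic lineage from which neuroblastoma arises, CIP/KIP proteins are known for their part in the exit of precursors from the cell cycle.

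RNA was sequenced from 3 established neuroblastoma cell lines of the adrenergic (ADRN) type, each as control, after 24 h with 1 μM PB and after longer PB, with 5 biological replicates in each of the 9 groups. SK-N-BE(2)C carries amplified MYCN and was treated for 7 days at the longer time; IMR-32 has amplified MYCN and SH-SY5Y an ALK mutation, and both were treated for 5 days. The labels name the reference samples only as control, and these were collected with the 24 h samples, so that longer PB also differed from control in time in culture, and 7 against 5 days cannot be told apart from line. The replicates are different passages of 1 line each, and each treated time was compared with the same 5 controls.

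The 45 libraries of polyA RNA held 13459219 to 25441812 counts (median 18494528), and 1 count in a library of median depth was worth 0.0529 to 0.0544 CPM (counts scaled to a common library total). In IMR-32, replicate 5 stood apart in all 3 groups: in a chi-square comparison of counts, it differed from each other control with a statistic per degree of freedom of 56.8 to 85.9, against 4.16 to 12.4 among the others. That control library also held more of the mesenchymal marker genes (96.9 against 20.2 to 30.7 summed CPM, 5 of 6 listed markers found) and fewer transcripts of the adrenergic markers (2024 against 2599 to 3076). In SK-N-BE(2)C, replicates 3, 4 and 5 lay close to each other among the controls (2.43 to 3.18, against 11.2 to 19.2 for other pairs) and at 24 h (1.69 to 2.42, against 7.05 to 23.6), so the 5 replicates may amount to fewer independent ones. Calls of the 8 genes that turn on these libraries are given with and without them. Adrenergic markers were present as labelled (8 of 8 at 1 CPM or more in SK-N-BE(2)C cells and IMR-32, 7 of 8 in SH-SY5Y, where TH, the first enzyme of catecholamine synthesis, stood at 0.349 CPM). The leukocyte marker PTPRC and the endothelial marker PECAM1 stood below 0.05 CPM on average in every group, whereas COL1A1, a collagen gene of stromal cells, was present in all lines (15.3, 109 and 36.8 CPM in controls of SK-N-BE(2)C, of IMR-32 and of SH-SY5Y). EPCAM, an epithelial marker, stood at 0.133 CPM in controls, 0.503 after 24 h and 2.11 after 7 days in SK-N-BE(2)C cells, and at 0.0916 to 0.282 CPM in the groups of the other lines; its part in the results was not tested.

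Which members each line used differed widely before any drug was given. In control cells, 126 ± 32.3 CPM (mean ± SD, n = 5 here and below) of CDKN1A was found in SH-SY5Y, against 15.5 ± 7.88 in IMR-32 and 9.08 ± 3.53 in SK-N-BE(2)C cells, differences of 7.15-fold and 11.9-fold (edgeR quasi-likelihood F test over all 45 libraries, adjusted p = 1.1e-08 and 1.3e-10). The 2 lower lines did not pass the test against each other (−0.73 ± 0.38 on the log2 scale, adjusted p = 0.075), although leaving out 1 of 4 libraries brought them past it (SK-N-BE(2)C control replicate 1 or 2, SK-N-BE(2)C 7 day replicate 1, or IMR-32 control replicate 2, adjusted p = 0.029 to 0.050). CDKN2A ran the other way: it stood at 40.0 ± 4.93 CPM in SK-N-BE(2)C cells and 21.3 ± 4.39 in IMR-32 but at 1.46 ± 0.307 in SH-SY5Y, 31.4-fold and 16.5-fold less than in the others (adjusted p = 7.6e-24 and 4.2e-21).

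Other members were close to absent in 1 or 2 of the lines. CDKN1C had 0 to 20 reads per library in SK-N-BE(2)C cells, against 45.8 ± 23.3 CPM in IMR-32 and 29.2 ± 5.46 in SH-SY5Y controls, 158-fold and 88.6-fold more. These folds rest on few reads: the log2 differences of −7.31 and −6.47 became −7.92 and −7.08 without SK-N-BE(2)C control replicate 3. CDKN2B, in contrast, was measured mainly in SK-N-BE(2)C cells, at 4.36 ± 0.425 CPM in controls, whereas a library of IMR-32 held 0 to 8 reads of it and 1 of SH-SY5Y 0 to 11. Differences between untreated lines are common: 62.1, 57.5 and 54.2% of the 16282 genes tested were called between SK-N-BE(2)C and IMR-32, SK-N-BE(2)C and SH-SY5Y, and IMR-32 and SH-SY5Y (adjusted p under 0.05 and an absolute log2 difference over 0.5). CDKN1C in SK-N-BE(2)C cells, and CDKN2B in IMR-32 and SH-SY5Y, failed the filter on low counts, so 7 of the 8 members were tested for a response in each line.

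The remaining members were present in all lines. CDKN1B was highest in IMR-32 controls (255 ± 20.8 CPM) and was not called between SK-N-BE(2)C and SH-SY5Y controls, which stood at 140.5 ± 7.84 and 134 ± 4.35 (0.27 ± 0.072 on the log2 scale, adjusted p = 0.0010, inside the fold limit). CDKN2C was highest in SH-SY5Y controls (169.5 ± 13.2), then in SK-N-BE(2)C cells (70.6 ± 6.73) and IMR-32 (40.0 ± 3.52), with no overlap between libraries of these groups. CDKN2D followed another order, from 22.5 ± 6.31 in IMR-32 to 15.6 ± 2.45 in SH-SY5Y and 9.48 ± 1.56 in SK-N-BE(2)C cells, while CDKN3 ranged only from 24.2 ± 1.99 in IMR-32 to 39.4 ± 2.77 in SK-N-BE(2)C cells.

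**Figure D1:**
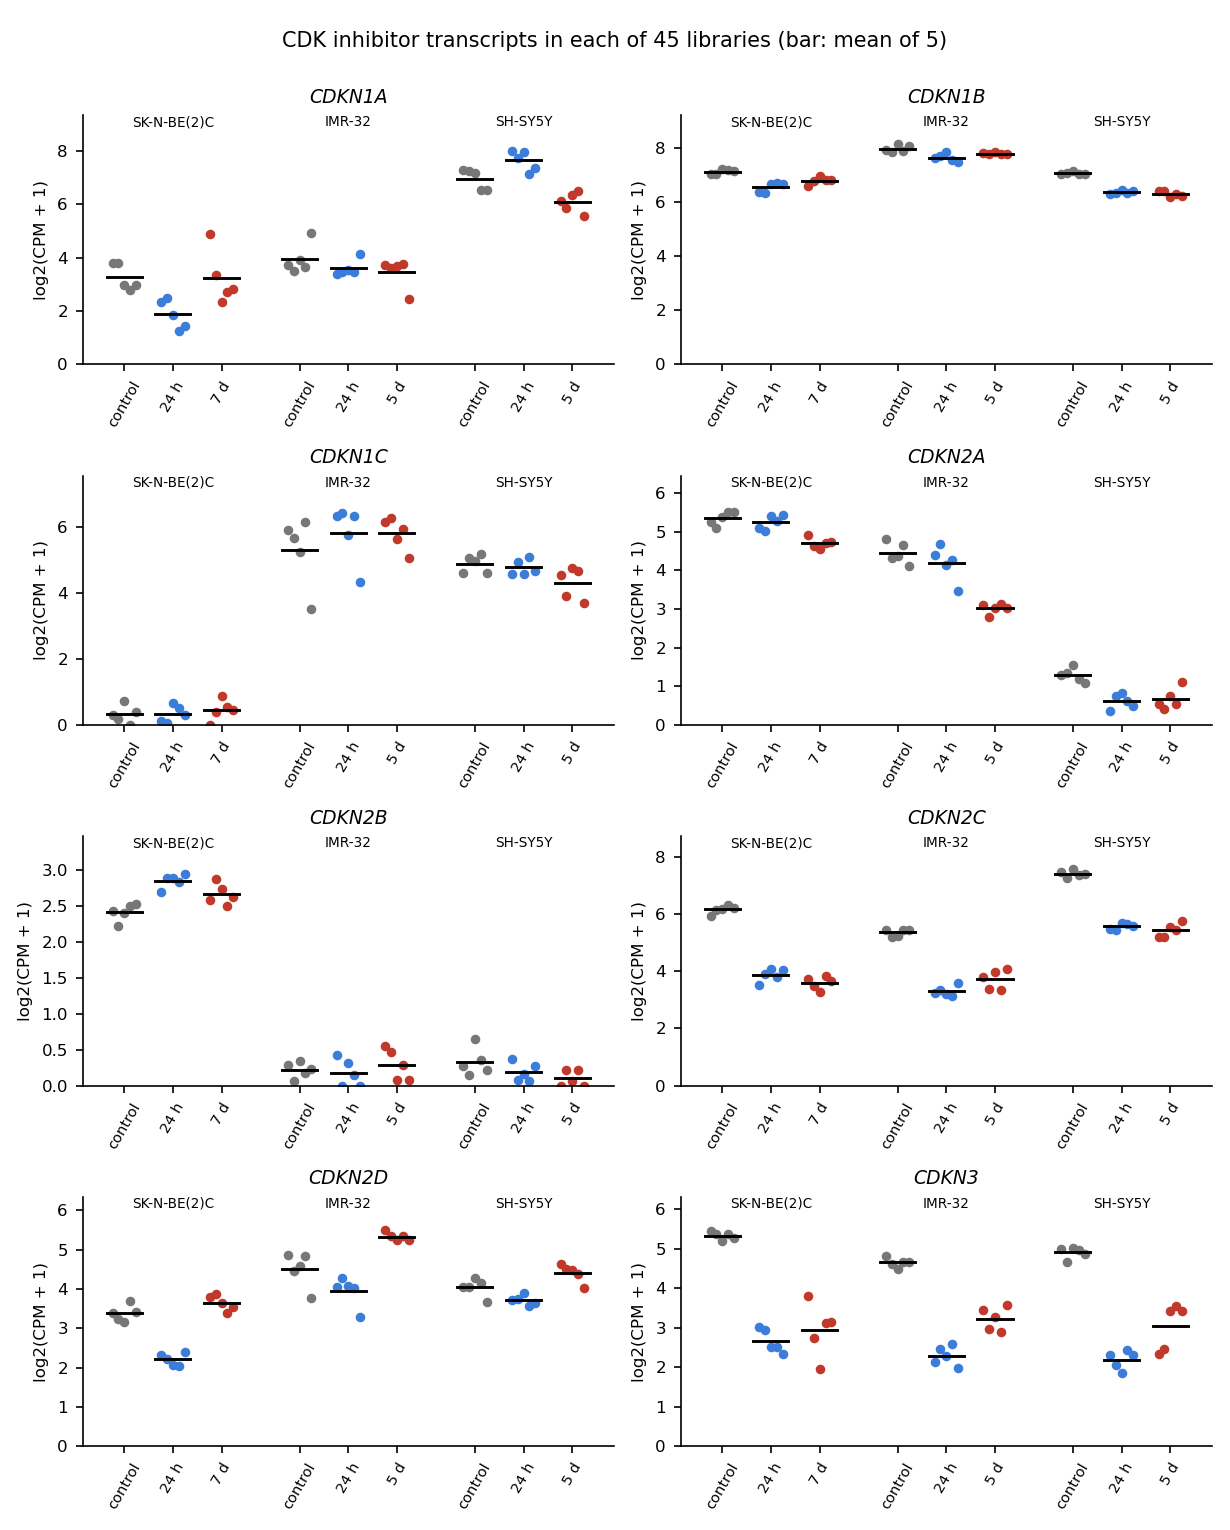
Level of each CDK inhibitor gene in each of the 45 libraries (log2 of CPM + 1 on the vertical axis), grouped by line and by control, 24 h and longer PB; points are libraries in replicate order and bars are means of 5. CDKN2C and CDKN3 drop at 24 h in all lines, CDKN2D dips at 24 h and stands higher at the longer time, and CDKN1A drops at 24 h in SK-N-BE(2)C but not in SH-SY5Y.

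The promoters of 4 members are shown, picked after their responses were seen. CDKN2C and CDKN3 fell in every line at both times, CDKN1B fell by less, and CDKN2D was lower at 24 h and rose again. Each sequence is the 250 bases before the annotated start in RefSeq on GRCh38.p14, read 5′ to 3′ on the strand of the gene, and capitals mark matches to short words searched on both strands. For E2F these were TTCCCGC as the usual form and TTGGCGC with the less usual TTCGCGC besides TTGCCGC. For the CHR element of cell cycle promoters they were TTTGAA as well as TTTAAA, and for forkhead factors TGTTTAC. Of 3 CDKN2C starts, the one at chr1:50968456-50968705 (plus strand) held 2 E2F words, which began 131 and 34 bases before the start, and the other 2 held none. CDKN3 (chr14:54396757-54397006, plus strand) held a CHR word 170 bases before its start, and CDKN1B (chr12:12717118-12717367, plus strand) held 1 at 30 bases. CDKN2D (chr19:10568980-10569229, minus strand) held none of these words. No capitalised match overlapped another.
CDKN2C: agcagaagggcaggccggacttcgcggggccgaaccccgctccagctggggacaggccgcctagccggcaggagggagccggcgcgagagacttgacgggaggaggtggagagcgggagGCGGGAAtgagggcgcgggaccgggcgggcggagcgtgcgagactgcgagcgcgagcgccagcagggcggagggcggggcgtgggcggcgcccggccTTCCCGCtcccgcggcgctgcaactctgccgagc
CDKN3: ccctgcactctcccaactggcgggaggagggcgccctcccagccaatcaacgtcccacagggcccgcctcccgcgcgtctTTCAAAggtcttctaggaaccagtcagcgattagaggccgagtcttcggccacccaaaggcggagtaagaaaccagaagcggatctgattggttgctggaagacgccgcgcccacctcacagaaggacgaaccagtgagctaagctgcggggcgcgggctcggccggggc
CDKN1B: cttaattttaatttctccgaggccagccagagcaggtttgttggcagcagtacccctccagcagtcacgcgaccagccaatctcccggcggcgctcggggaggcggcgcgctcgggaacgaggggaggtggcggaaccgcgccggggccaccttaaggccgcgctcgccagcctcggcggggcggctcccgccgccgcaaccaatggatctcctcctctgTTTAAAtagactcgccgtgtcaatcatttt
CDKN2D: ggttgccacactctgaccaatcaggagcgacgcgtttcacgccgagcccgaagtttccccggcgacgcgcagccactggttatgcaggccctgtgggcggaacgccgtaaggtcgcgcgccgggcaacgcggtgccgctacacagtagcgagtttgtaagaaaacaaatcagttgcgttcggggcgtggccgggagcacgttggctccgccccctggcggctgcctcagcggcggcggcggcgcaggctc

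Of 35116 RefSeq promoter windows of this length, 10.9% held an E2F word, 21.9% a CHR word and 2.98% the forkhead word. Promoter entries were found for 7 of the 8 members (10 entries), and those of CDKN1A, CDKN2A and CDKN2B held none of the words. A match is a description of the letters and not a bound site. Words were found only in CDKN2C, CDKN3 and CDKN1B, which were among those picked. CDKN2A, which fell in all lines at the longer time, held none, and no link between words and responses was tested.

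CDKN1A, at 6:36644237-36655114 on the plus strand of GRCh37, encodes p21, a broad inhibitor of CDKs that is induced by DNA damage. At 24 h it was called in opposite directions in SK-N-BE(2)C and SH-SY5Y. SK-N-BE(2)C cells held CDKN1A at 13.1, 12.8, 6.94, 5.87 and 6.76 CPM in control replicates 1 to 5, at 3.996, 4.599, 2.59, 1.39 and 1.75 after 24 h and at 28.4, 9.12, 4.08, 5.56 and 6.11 after 7 days. Every 24 h library lay below every control, whereas the 7 day libraries were spread around the controls, with replicate 1 far above the rest. At 24 h it fell, with a log2 change of −1.68 ± 0.53 (± SE, edgeR within the line, adjusted p = 0.017), and from 24 h to 7 days it rose by 1.86 ± 0.53 (adjusted p = 0.0077), or by 1.07 (adjusted p = 0.019) without 7 day replicate 1. The fall missed the threshold without the filter on low counts (adjusted p = 0.053) and in replicates 1 and 2 alone (−1.61, adjusted p = 0.077), against adjusted p = 9.0e-04 to 0.044 when any single library was left out. At 7 days against control the difference was 0.17 ± 0.49 (adjusted p = 0.77), and without 7 day replicate 1 it was −0.62 (adjusted p = 0.12). In replicates 3, 4 and 5 alone it was −0.39 (adjusted p = 0.10).

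In SH-SY5Y, the line with the most CDKN1A, the order over time was reversed. CDKN1A stood at 154, 149, 144, 90.4 and 90.6 CPM in controls, at 255, 214, 248, 141 and 162 after 24 h and at 69.0, 56.97, 80.0, 90.2 and 46.0 after 5 days. Each 24 h library was above the control of the same number, but the groups overlapped, since 24 h replicate 4 lay below 3 of the controls. All 5 day libraries lay below all 24 h libraries and all controls. The rise at 24 h was 0.69 ± 0.22 (adjusted p = 0.018), and the 5 day level was lower than control (log2 change −0.94 ± 0.22, adjusted p = 0.0018) and than 24 h (−1.63 ± 0.22, adjusted p = 8.6e-05). Without 24 h replicate 3 the rise no longer passed the test (0.59, adjusted p = 0.055, the highest over 15 single libraries left out, which gave 0.0088 to 0.055), and without the filter on low counts its adjusted p was 0.051.

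IMR-32 gave no called change of CDKN1A. It stood at 12.3, 10.22, 14.2, 11.4 and 29.4 CPM in controls, at 9.58, 10.1, 10.7, 9.88 and 16.3 after 24 h and at 12.3, 11.1, 12.0, 12.7 and 4.42 after 5 days. Replicate 5 was the highest library in the controls and at 24 h and the lowest at 5 days, and the other 12 libraries lay between 9.58 and 14.2. The differences were −0.42 ± 0.31 at 24 h and −0.58 ± 0.31 at 5 days (adjusted p = 0.33 and 0.13), and without the replicates 5 they were −0.20 and −0.0089 (adjusted p = 0.15 and 0.95). The direct test of the 24 h response between lines found SK-N-BE(2)C lower than SH-SY5Y (log2 difference −2.40 ± 0.55, adjusted p = 0.0083), while the differences of IMR-32 from SH-SY5Y (−1.13 ± 0.50, adjusted p = 0.23) and of SK-N-BE(2)C from IMR-32 (−1.27 ± 0.57, adjusted p = 0.19) did not pass it. A stretch of 146 bases of CDKN1A exons lies under exons of DINOL on the other strand, and the strand counted is not given, so reads from the 2 genes cannot be told apart there.

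CDKN1B, at 12:12838432-12875303 (plus strand), encodes p27, the CIP/KIP inhibitor that holds quiescent cells out of the cycle and is controlled largely by protein turnover. Its transcript was lower with PB in all lines, by modest amounts and with little spread. SK-N-BE(2)C cells held CDKN1B at 133, 131, 148, 146 and 144 CPM in controls, at 82.0, 79.6, 101, 104 and 102 after 24 h and at 96.1, 109, 126, 113 and 113 after 7 days. In SH-SY5Y it stood at 131, 136, 141, 132 and 131 in controls, at 77.6, 81.6, 87.0, 80.5 and 83.9 after 24 h and at 83.9, 84.8, 72.2, 79.3 and 73.7 after 5 days. In both lines every treated library lay below every control at both times. CDKN1B fell in SK-N-BE(2)C cells at 24 h (−0.62 ± 0.081, adjusted p = 1.2e-05) and in SH-SY5Y at 24 h (−0.72 ± 0.051, adjusted p = 3.9e-09) and 5 days (−0.84 ± 0.052, adjusted p = 6.1e-10). At 7 days in SK-N-BE(2)C cells its difference of −0.38 ± 0.080 had an adjusted p of 5.0e-04 but lay inside the fold limit of 0.5.

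In IMR-32, which held the most CDKN1B, the differences were smaller. The gene stood at 247, 234, 283, 240.3 and 271 CPM in controls, at 199, 208, 232, 188 and 179.9 after 24 h and at 224, 221, 231, 219 and 221 after 5 days. Again no treated library reached the lowest control, but the differences of −0.30 ± 0.080 and −0.20 ± 0.080 (adjusted p = 0.010 and 0.044) were inside the fold limit. At 5 days the response differed between IMR-32 and SH-SY5Y by 0.58 ± 0.10 (adjusted p = 3.0e-05).

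CDKN1C, at 11:2904443-2907005 (minus strand), encodes p57, an imprinted CIP/KIP gene that acts in the development of many tissues. In IMR-32 it stood at 59.6, 50.4, 37.5, 71.2 and 10.6 CPM in controls, at 79.7, 85.6, 53.1, 80.0 and 19.2 after 24 h and at 70.5, 76.3, 48.8, 60.4 and 32.8 after 5 days. Replicate 5 was the lowest library in each group, and the groups overlapped. The differences from control were 0.53 ± 0.44 at 24 h and 0.32 ± 0.44 at 5 days (adjusted p = 0.39 and 0.56), and without the replicates 5 they were 0.50 and 0.22 (adjusted p = 0.060 and 0.37). Each 24 h library was above the control of its own number. In SH-SY5Y it stood at 23.6, 32.8, 30.4, 35.5 and 23.4 in controls, at 23.3, 29.7, 23.3, 33.5 and 24.8 after 24 h and at 22.7, 14.1, 26.02, 24.4 and 12.0 after 5 days. The 24 h and control libraries covered the same range, and at 5 days replicates 2 and 5 were lower than the rest. CDKN1C fell at 5 days (−0.62 ± 0.20, adjusted p = 0.013), a call lost to the fold limit without 5 day replicate 5 (−0.50, adjusted p = 0.026, with 0.0052 to 0.036 over all single libraries left out). From 24 h to 5 days the difference of −0.50 ± 0.20 (adjusted p = 0.058) passed only with the replicate number as a block (−0.52, adjusted p = 0.025) or without 5 day replicate 3 or 4 (−0.62 and −0.58). The reads of CDKN1C in SK-N-BE(2)C numbered 5, 3, 13, 0 and 6 in controls, 2, 1, 10, 8 and 5 after 24 h and 0, 6, 20, 8 and 7 after 7 days, too few to compare.

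CDKN2C, at 1:51426417-51440306 (plus strand), encodes p18, an INK4 inhibitor that is itself read out in cycling cells. It was the INK4 gene with the largest fall, in every line and at both times. In SK-N-BE(2)C, CDKN2C stood at 60.6, 70.0, 71.0, 79.4 and 72.1 CPM in controls, at 10.4, 13.9, 15.9, 13.05 and 15.3 after 24 h and at 12.4, 10.1, 8.70, 13.4 and 11.7 after 7 days. In IMR-32 it stood at 42.0, 36.02, 36.3, 42.7 and 42.9, 8.46, 9.16, 8.23, 7.82 and 10.9 and 12.97, 9.48, 14.6, 9.15 and 16.1 in control, 24 h and 5 day libraries. In SH-SY5Y the corresponding libraries stood at 175, 152, 188, 165 and 168, at 43.97, 42.2, 49.8, 49.5 and 47.2 and at 35.3, 35.5, 45.7, 42.9 and 53.6. No treated library of any line came near its controls, whereas the 2 treated times overlapped in each line. In bulk RNA, fewer cells holding a transcript and less of it per cell cannot be told apart.

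At 24 h the log2 change of CDKN2C was −2.40 ± 0.12 in SK-N-BE(2)C cells, −2.12 ± 0.16 in IMR-32 and −1.88 ± 0.10 in SH-SY5Y (adjusted p = 5.3e-10, 3.7e-08 and 2.8e-10), that is, 5.27-fold, 4.35-fold and 3.67-fold lower. With longer PB the changes were −2.69 ± 0.12, −1.69 ± 0.15 and −2.06 ± 0.10 (adjusted p = 4.5e-11, 1.0e-06 and 9.0e-11). The lines differed at that time: the change in SK-N-BE(2)C cells was lower than that in IMR-32 (log2 difference −0.97 ± 0.19, adjusted p = 8.4e-05) and than that in SH-SY5Y (−0.66 ± 0.18, adjusted p = 0.0047), with 7 days of PB against 5. From 24 h to the longer time no change of CDKN2C was called; in IMR-32 the difference of 0.43 ± 0.16 (adjusted p = 0.043) passed the fold limit only without 24 h replicate 5, 5 day replicate 2 or 5 day replicate 4 (0.50 to 0.53). Of its exon bases, 617 lie under a gene on the other strand.

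CDKN2D, at 19:10677136-10679735 (minus strand), encodes the INK4 inhibitor p19, which neurons keep after they stop dividing. It was lower at 24 h and then higher, the only one of the 6 members tested in every line that rose from 24 h to the longer time in all 3 (1.92% of the 12556 genes tested in all lines did so). Libraries of SK-N-BE(2)C held it at 9.41, 8.43, 7.93, 12.0 and 9.68 CPM in controls, at 3.996, 3.66, 3.20, 3.12 and 4.27 after 24 h and at 12.9, 13.6, 11.6, 9.53 and 10.6 after 7 days. In IMR-32 it stood at 28.2, 20.99, 22.8, 27.7 and 12.6 in controls, at 15.6, 18.4, 15.8, 15.3 and 8.71 after 24 h and at 43.9, 39.5, 36.9, 39.7 and 36.7 after 5 days. In SH-SY5Y it stood at 15.5, 15.7, 18.5, 16.6 and 11.8 in controls, at 12.1, 12.3, 13.8, 10.9 and 11.5 after 24 h and at 24.0, 21.6, 21.2, 19.9 and 15.3 after 5 days. In each line the longer time lay wholly above 24 h. The longer time lay wholly above control only in IMR-32, and 24 h lay wholly below control only in SK-N-BE(2)C cells.

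The rise of CDKN2D from 24 h was 1.66 ± 0.14 in SK-N-BE(2)C cells, 1.35 ± 0.20 in IMR-32 and 0.70 ± 0.12 in SH-SY5Y (adjusted p = 9.8e-08, 1.4e-04 and 2.0e-04). Against control, the fall at 24 h was −1.40 ± 0.14 in SK-N-BE(2)C cells (adjusted p = 7.7e-07), and the difference in SH-SY5Y was −0.38 ± 0.12 (adjusted p = 0.013), inside the fold limit. In IMR-32 the fall of −0.55 ± 0.20 (adjusted p = 0.044) was lost when any of 12 of the 15 libraries was left out (controls 1 to 4, 24 h replicates 1, 3, 4 and 5, and 5 day replicates 1 to 4, −0.58 to −0.41, adjusted p = 0.053 to 0.11). At 5 days CDKN2D was above control in IMR-32 by 0.80 ± 0.20 (adjusted p = 0.0036), while SK-N-BE(2)C at 7 days and SH-SY5Y at 5 days differed from control by 0.26 ± 0.13 and 0.32 ± 0.12 (adjusted p = 0.093 and 0.023) and were not called. The 24 h response in SK-N-BE(2)C cells was below that of SH-SY5Y (log2 difference −1.05 ± 0.24, adjusted p = 0.0086) and that of IMR-32 (−0.84 ± 0.24, adjusted p = 0.024), the second call being lost without SK-N-BE(2)C control replicate 4, SK-N-BE(2)C 24 h replicate 3 or 4, or IMR-32 24 h replicate 2 (adjusted p up to 0.067).

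CDKN2A, at 9:21967751-21995300 (minus strand), encodes p16 and, in another frame, ARF, the inhibitor of MDM2, and gene counts cannot separate the 2 products. In SK-N-BE(2)C it stood at 36.9, 33.1, 41.1, 44.4 and 44.4 CPM in controls, at 33.0, 31.4, 41.6, 38.1 and 42.5 after 24 h and at 29.0, 24.0, 22.6, 25.0 and 25.7 after 7 days. In IMR-32 it stood at 27.2, 18.9, 19.6, 24.2 and 16.3 in controls, at 20.3, 24.7, 16.6, 18.3 and 10.1 after 24 h and at 7.56, 5.99, 7.16, 7.78 and 7.23 after 5 days. In both lines the 24 h libraries overlapped the controls and the longer time lay wholly below both. CDKN2A fell against control at 7 days in SK-N-BE(2)C cells (log2 change −0.70 ± 0.10, adjusted p = 1.2e-05) and at 5 days in IMR-32 (−1.58 ± 0.20, adjusted p = 1.8e-05), that is, 1.63-fold and 2.997-fold lower. From 24 h on it also fell in both (−0.57 ± 0.10 and −1.39 ± 0.20, adjusted p = 1.7e-04 and 1.1e-04). At 24 h the differences were −0.13 ± 0.10 and −0.19 ± 0.19 (adjusted p = 0.31 and 0.49). With SK-N-BE(2)C replicates 1 and 2 alone the 7 day difference was −0.45 against control (adjusted p = 0.037), inside the fold limit, and −0.30 against 24 h (adjusted p = 0.16). The fall at the longer time was smaller in SK-N-BE(2)C cells than in IMR-32 (log2 difference 0.91 ± 0.24, adjusted p = 0.0025). MDM2, the ubiquitin ligase that ARF binds, differed by −0.46 at 7 days in SK-N-BE(2)C cells (adjusted p = 9.6e-06), inside the fold limit, which it passed without control replicate 1 or 7 day replicate 3 (−0.50 each) and in replicates 1 and 2 alone (−0.53). It fell at 5 days in SH-SY5Y (−0.72, adjusted p = 1.4e-08), against a log2 difference of −0.25 in IMR-32 (adjusted p of the difference between lines = 0.0088). The MDM2 protein, which ARF binds, was not measured. In IMR-32 at 5 days COL1A1 was lower as well (22.4 to 35.8 CPM, against 77.9 to 139.9 in controls). The sum of the mesenchymal markers was also lower there (7.28 to 12.8, against 20.2 to 96.9 CPM). Most of that sum was the marker FN1 (6.99 to 12.3, against 19.1 to 79.4 CPM). In SK-N-BE(2)C cells at 7 days, where CDKN2A also fell, the mesenchymal sum was higher (149 to 314, against 93.7 to 113 CPM). In SH-SY5Y at 5 days it was lower (68.6 to 109, against 164 to 200 CPM). The part of these markers in the change of CDKN2A was not tested.

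In SH-SY5Y, CDKN2A was near the lower end of what could be measured, with 34, 29, 37, 27 and 21 reads in control replicates 1 to 5, 5, 12, 13, 12 and 8 after 24 h and 8, 6, 14, 8 and 19 after 5 days. All 24 h libraries were below all controls, and 5 day replicate 5 reached into their range. The log2 change was −1.42 ± 0.31 at 24 h and −1.32 ± 0.30 at 5 days (both called, adjusted p = 9.3e-04 and 9.1e-04). The 24 h response was higher in SK-N-BE(2)C cells than in SH-SY5Y by 1.26 ± 0.33 and in IMR-32 by 1.20 ± 0.33 (adjusted p = 0.024 and 0.030). Those 2 calls were lost without SH-SY5Y control replicate 3 or 24 h replicate 1 or 5, and the second also without SH-SY5Y 24 h replicate 4 or IMR-32 24 h replicate 2 (adjusted p up to 0.072 and 0.084). At the longer time SK-N-BE(2)C and SH-SY5Y differed in response by 0.59 ± 0.33 (adjusted p = 0.17), and by 0.91 (adjusted p = 0.037) without SH-SY5Y 5 day replicate 5. Of the exon bases of CDKN2A, 593 lie under the antisense gene CDKN2B-AS1, which had 0.680, 0.242 and 0.0210 CPM in controls of SK-N-BE(2)C, of IMR-32 and of SH-SY5Y.

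CDKN2B, at 9:22002902-22009304 beside CDKN2A, encodes p15, the INK4 inhibitor induced by TGF-beta in many epithelia. Libraries of SK-N-BE(2)C stood at 4.40, 3.69, 4.29, 4.68 and 4.76 CPM in controls, at 5.49, 6.45, 6.39, 6.13 and 6.74 after 24 h and at 4.99, 6.32, 5.67, 4.65 and 5.18 after 7 days. All 24 h libraries lay above all controls, opposite to every other member that separated there. The difference of 0.49 ± 0.11 at 24 h (adjusted p = 0.0021) was just inside the fold limit and passed it without control replicate 4 or 5 or 24 h replicate 1 (0.51 to 0.53), and at 7 days it was 0.26 ± 0.11 (adjusted p = 0.052). In the other lines, where it was tested only without the filter on low counts, the largest difference was −1.77 ± 0.72 at 5 days in SH-SY5Y (adjusted p = 0.052), on 5, 2, 11, 6 and 3 reads in controls and 0, 3, 1, 3 and 0 at 5 days. The fit over all lines, which CDKN2B entered only through its level in SK-N-BE(2)C cells, gave them a higher longer response than SH-SY5Y by 1.99 ± 0.70 (adjusted p = 0.028), which rests on those few reads and was lost without any of 4 SH-SY5Y libraries (control replicate 3 or 5 day replicate 1, 3 or 5, adjusted p up to 0.11).

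CDKN3, at 14:54863567-54886936 (plus strand), encodes a phosphatase that removes the activating phosphate from CDK2 and CDK1 and is made mostly in dividing cells. It had the largest falls of all members at 24 h. Libraries of SK-N-BE(2)C held it at 42.9, 40.6, 35.8, 40.2 and 37.6 CPM in controls, at 7.09, 6.68, 4.70, 4.68 and 4.03 after 24 h and at 12.9, 5.67, 2.90, 7.77 and 7.82 after 7 days. In IMR-32 it stood at 27.1, 23.6, 21.6, 24.6 and 24.2 in controls, at 3.37, 4.51, 3.87, 4.99 and 2.94 after 24 h and at 9.95, 6.87, 8.71, 6.41 and 10.9 after 5 days. In SH-SY5Y it stood at 31.0, 24.6, 31.6, 30.2 and 28.2 in controls, at 3.98, 3.14, 2.61, 4.37 and 3.93 after 24 h and at 4.09, 4.52, 9.80, 10.7 and 9.72 after 5 days. Every treated library was far below its controls. From 24 h to 5 days IMR-32 libraries moved up without overlap, and in SH-SY5Y replicates 3, 4 and 5 did while replicates 1 and 2 stayed near the 24 h level.

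The log2 change of CDKN3 at 24 h was −2.88 ± 0.28 in SK-N-BE(2)C cells, −2.57 ± 0.17 in IMR-32 and −3.01 ± 0.24 in SH-SY5Y (adjusted p = 1.0e-06, 1.4e-08 and 4.9e-08), that is, 7.36-fold, 5.94-fold and 8.07-fold lower. After longer PB it was still lower than control in each line (log2 change −2.47 ± 0.28, −1.51 ± 0.17 and −1.97 ± 0.22, adjusted p = 1.1e-06, 4.5e-06 and 1.1e-06). From 24 h on it rose in IMR-32 (1.06 ± 0.17, adjusted p = 2.7e-04) and SH-SY5Y (1.04 ± 0.25, adjusted p = 0.0036). For SK-N-BE(2)C that difference was 0.41 ± 0.29 (adjusted p = 0.23), and 0.63 (adjusted p = 0.021) without 7 day replicate 3. At the longer time SK-N-BE(2)C lay below IMR-32 in response (log2 difference −0.93 ± 0.34, adjusted p = 0.029), a call lost without the IMR-32 replicates 5 (−0.84, adjusted p = 0.056) and without 7 day replicate 2 or 3 or 5 day replicate 1 or 5 alone (adjusted p up to 0.069). Its difference from SH-SY5Y (−0.53 ± 0.34, adjusted p = 0.24) passed only without 7 day replicate 1 (−0.83, adjusted p = 0.037).

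**Figure D2:**
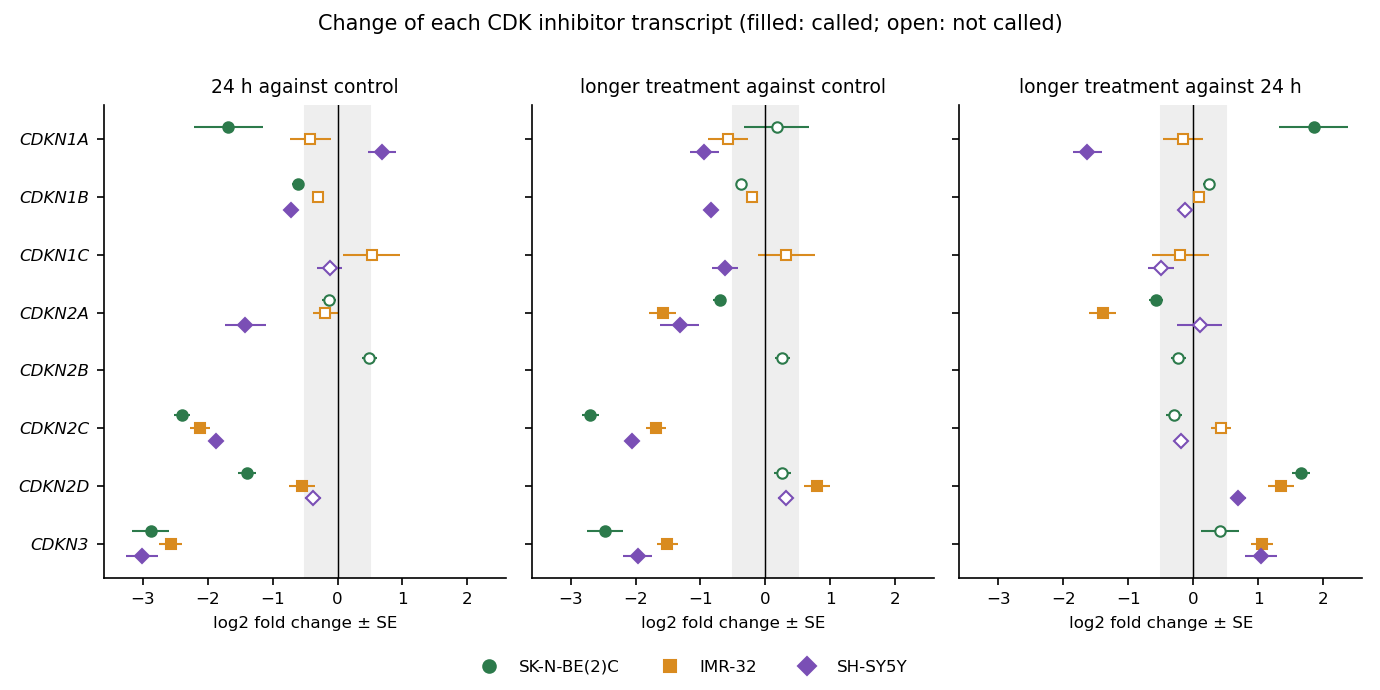
Log2 fold change (horizontal axis, error bar 1 SE) of each member, by line, for 24 h against control, longer PB against control and longer PB against 24 h; filled symbols are called and the grey band is the fold limit of 0.5. CDKN2C and CDKN3 lie left of the band in all lines in the first 2 panels, and CDKN2D lies right of it in all lines in the third.

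Counted together, more members fell than rose against control. At 24 h, 5 of 7 tested members were called in SK-N-BE(2)C cells, all lower (21.5% of all genes were called, 10.6% lower), 3 of 7 in IMR-32, all lower (18.3% of genes, 10.5% lower and 7.87% higher), and 5 of 7 in SH-SY5Y, 4 of them lower (21.5% of genes, 11% lower). At the longer time 3 of 7 were called in SK-N-BE(2)C cells, all lower (46.8% of genes, 22.3% lower), 4 of 7 in IMR-32, CDKN2D higher and 3 lower (32% of genes, 16.6% higher and 15.5% lower), and 6 of 7 in SH-SY5Y, all lower (35.9% of genes, 17.3% lower). From 24 h on, 3 of 7 were called in each line, against 31.9%, 19.6% and 16.7% of genes. CDKN2D was among those that rose each time, with CDKN1A in SK-N-BE(2)C cells (17.5% of genes rose) and with CDKN3 in IMR-32 and SH-SY5Y (10.8% and 10.5%). The 1 that fell was CDKN2A in SK-N-BE(2)C cells (14.4% fell) and IMR-32 (8.86%) and CDKN1A in SH-SY5Y (6.23%).

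Libraries of 6 of 7 members did not overlap between 24 h and control in SK-N-BE(2)C cells (39.3% of genes), nor those of 3 in IMR-32 (23.1%) and 4 in SH-SY5Y (38.5%). For longer PB the numbers were 4, 5 and 4 against control (53.8%, 39.1% and 47%) and 2, 3 and 2 against 24 h (40.4%, 23.5% and 24.7%). Of the 6 members tested in all lines, CDKN2C and CDKN3 were lower in all 3 at 24 h (5.81% of 12556 genes were), and CDKN2A, CDKN2C and CDKN3 at the longer time (6.5%). No member was higher in all 3 lines at 24 h (2.84% of genes) or at the longer time (6.91%). Both times were set against the same controls and are not independent. Of 48 differences in response between lines, 11 were called; at 24 h these were 1 of 8 members between SK-N-BE(2)C and IMR-32 (4.49% of genes), 3 between SK-N-BE(2)C and SH-SY5Y (2.04%) and 1 between IMR-32 and SH-SY5Y (3.07%), and at the longer time 3, 2 and 1 of 8 (23.9%, 21.2% and 20.8%). Of the 48, 10 set CDKN1C or CDKN2B against a line in which that gene failed the filter on low counts, and 1 of the 11 called was among them (CDKN2B at the longer time, SK-N-BE(2)C against SH-SY5Y).

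Levels of different genes can be compared only per length, and RPKM values (CPM per kilobase of exon, all annotated exons merged) were computed for that. The 3 CIP/KIP genes summed to 18.3 ± 0.450 RPKM in SK-N-BE(2)C controls, 51.2 ± 5.76 in IMR-32 and 68.2 ± 11.1 in SH-SY5Y. By the longest single transcript in place of all exons, these control sums were 36.5 ± 0.606, 89.3 ± 6.56 and 101 ± 14.8 RPKM. CDKN1B made up 83.0% of the sum in SK-N-BE(2)C cells, and CDKN1A 60.7% in SH-SY5Y. After 24 h the sums were 11.2 ± 0.936, 51.2 ± 11.0 and 87.8 ± 15.8 RPKM, and at the longer time 15.8 ± 2.33, 50.9 ± 7.90 and 39.4 ± 8.29. The sum in SK-N-BE(2)C cells was thus lower at 24 h, that in IMR-32 moved by less than its spread, and that in SH-SY5Y was highest at 24 h and lowest at 5 days.

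The 4 INK4 genes summed to 41.1 ± 3.96 RPKM in SK-N-BE(2)C controls, 33.7 ± 5.48 in IMR-32 and 67.0 ± 5.35 in SH-SY5Y. After 24 h these sums were 18.1 ± 1.93, 17.4 ± 3.48 and 23.6 ± 1.38, and at the longer time 19.3 ± 1.46, 32.2 ± 1.89 and 27.9 ± 1.16. The make-up of the sum changed with treatment. The share of CDKN2C went from 56.997 to 25.0 and 19.4% in SK-N-BE(2)C cells, from 40.1 to 17.9 and 12.9% in IMR-32 and from 83.9 to 65.2 and 50.6% in SH-SY5Y over control, 24 h and longer PB. That of CDKN2D went from 15.3 to 13.5 and 40.0%, from 43.6 to 55.8 and 81.2% and from 15.5 to 34.1 and 48.8%. At the longer time CDKN2D was the largest INK4 share in IMR-32 and SK-N-BE(2)C by this length, but by the longest single transcript CDKN2A stood above it in SK-N-BE(2)C cells (24.0 against 8.17 RPKM). With that length, which is much shorter for CDKN2A, the IMR-32 sum at 5 days was 38.7 ± 2.23 RPKM against 49.8 ± 8.72 in controls. By that length the SK-N-BE(2)C sums were 70.1 ± 7.19, 44.4 ± 5.34 and 37.4 ± 2.98 RPKM in control, 24 h and 7 day libraries, so the step from 24 h to 7 days pointed down rather than up. CDKN2C was then 24.3 of the 70.1 RPKM in controls and 4.72 of the 44.4 at 24 h, so these shares move with the length used.

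**Figure D3:**
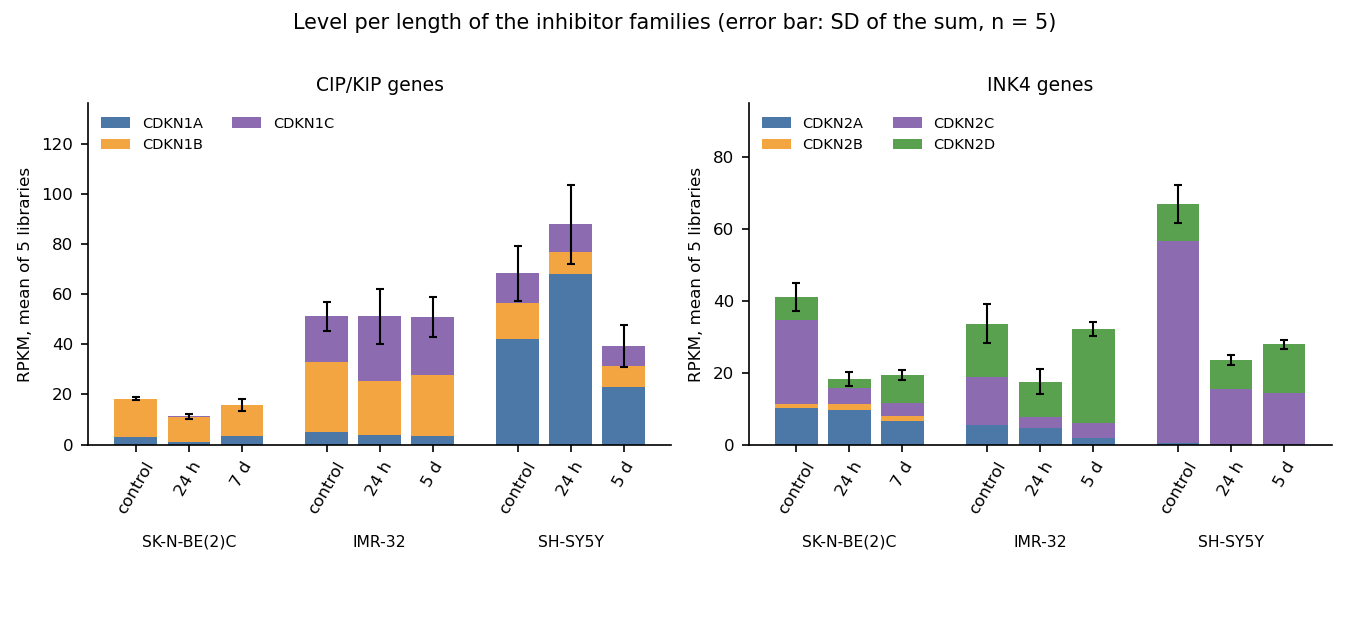
Summed RPKM (vertical axis, mean of 5 libraries, error bar 1 SD of the sum) of the CIP/KIP genes on the left and the INK4 genes on the right, stacked by gene, in each line and condition. The INK4 sum drops at 24 h in all lines as CDKN2C shrinks, and the CDKN2D segment is widest at the longer time.

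Within groups, CDKN1A and CDKN3 differed between replicates, and the summed level of 10 G2/M genes is given beside them. In SK-N-BE(2)C at 7 days, replicate 1 had the most CDKN1A (28.4 CPM, against 4.08 to 9.12 in the others) and the most CDKN3 (12.9 CPM), and its G2/M sum was the highest of the group (784 CPM, against 274 to 581). In SH-SY5Y at 5 days, replicates 1 and 2 had the least CDKN3 and the lowest G2/M sums (301 and 472, against 653 to 825 CPM). In IMR-32, replicate 5 had the highest G2/M sum in controls (3588, against 2237 to 2609), at 24 h (582, against 417 to 513) and at 5 days (1528, against 854 to 1143). Its CDKN3 lay within the range of the other controls, was the lowest at 24 h and the highest at 5 days, while its CDKN1A was the highest, the highest and the lowest. Their part in the values of CDKN1A and CDKN3 was not tested. Without the IMR-32 replicates 5 no member changed its call in any comparison within that line, other than that CDKN1A from 24 h to 5 days changed sign without being called (from −0.16 ± 0.31 to 0.19).

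**Figure D4:**
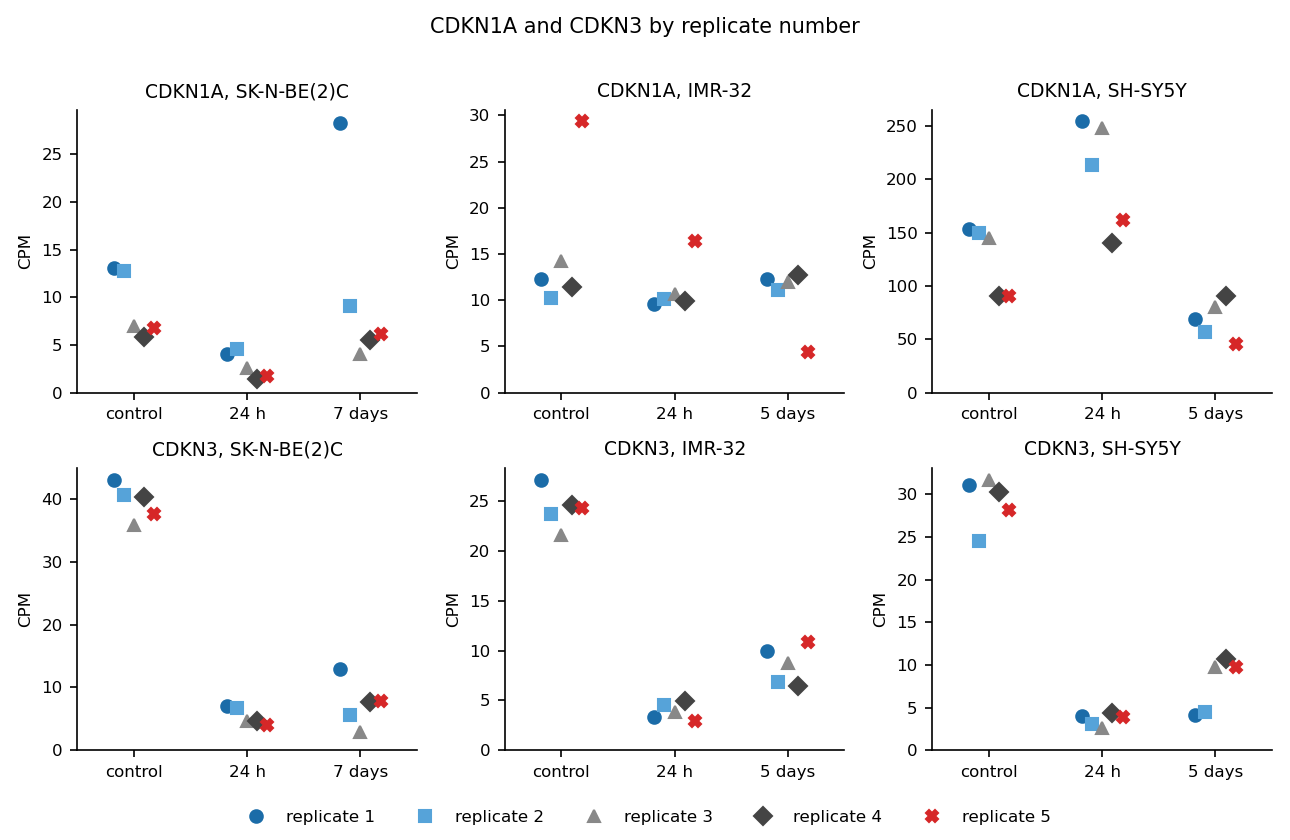
CPM (vertical axis) of CDKN1A in the upper row and CDKN3 in the lower row for each line and condition, with 1 symbol per replicate number. Replicate 1 of SK-N-BE(2)C at 7 days is high for both genes, and replicate 5 of IMR-32 is the highest for CDKN1A in control and at 24 h and the lowest at 5 days.

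Around the inhibitors, the genes of cyclins and CDKs fell more often than they rose. Of the cyclins and CDKs, 1 rose and 7 of 14 tested fell at 24 h in SK-N-BE(2)C cells, 1 rose and 8 of 15 fell in IMR-32, and 1 rose and 9 of 15 fell in SH-SY5Y. Over all genes tested, 10.6, 10.5 and 11% were lower at 24 h and 10.9, 7.87 and 10.5% higher. The 1 that rose was CCND1 (cyclin D1, the partner of CDK4), with log2 changes of 0.71, 0.75 and 0.67 at 24 h, then 1.24, 1.36 and 0.77 after longer PB in the 3 lines in this order (adjusted p = 5.8e-07, 1.8e-05 and 1.2e-06, then 3.9e-10, 1.4e-07 and 1.1e-07). CCNE2, which with CDK2 starts S phase, changed by −3.10, −5.02 and −4.57 at 24 h, and CDK1, the mitotic kinase, by −2.65, −3.19 and −3.10, all called. CDK4 differed from control by −0.20, −0.18 and −0.26 and CDK6 by 0.32, 0.32 and 0.049 at 24 h, none of them called. After longer PB CDK4 fell in SK-N-BE(2)C cells and IMR-32 (−0.56 and −0.54, adjusted p = 1.1e-06 and 0.0014, in IMR-32 inside the fold limit without control replicate 5 or all replicates 5, −0.45 each) and differed by −0.35 in SH-SY5Y. CDK6 then differed by −0.16, 0.497 and 0.083, and in IMR-32 it passed the fold limit with library totals alone (0.51), without the replicates 5 (0.51), or without control replicate 1 or 2 or 5 day replicate 1, 3 or 5 alone (0.51 to 0.55). At 24 h the median over the list was −0.57, −1.23 and −0.79, against 0.023, 0.060 and 0.037 over all genes. After longer PB it was −0.49, −0.54 and −0.45, against 0.012, 0.0028 and 0.011.

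Genes downstream of RB fell with CDKN2C and CDKN3. All 10 genes of the G2/M list were called lower in every line at both times (of all genes, 10.6, 10.5 and 11% after 24 h, then 22.3, 15.5 and 17.3% after longer PB), with medians of −2.33, −2.44 and −2.91 at 24 h, then −2.16, −1.38 and −2.04 after longer PB. From 24 h on, all 10 rose in IMR-32 and SH-SY5Y (medians 1.06 and 0.96) and 1 in SK-N-BE(2)C cells (median 0.34), as CDKN3 did in those 2 lines (of all genes 10.8% and 10.5% rose there and 17.5% in SK-N-BE(2)C cells). PLK1, a kinase of mitotic entry, was among the most changed at 24 h (−3.43, −2.66 and −4.56), as were TOP2A, the topoisomerase that untangles chromosomes (−3.23, −2.86 and −3.72), and KIF2C, a kinesin of the spindle (−3.54, −2.91 and −3.87). After longer PB the falls of TOP2A (−2.65, −1.48 and −2.35) and of UBE2C, which loads ubiquitin for mitotic exit (−2.75, −1.46 and −2.59), were among the largest of the list. Of the 13 RB and E2F genes, 7, 8 and 6 were lower at 24 h (10.6, 10.5 and 11% of all genes) and 2, 1 and 0 higher (10.9, 7.87 and 10.5%). The largest fall was that of E2F8, a repressor among the E2F factors (−4.76, −6.76 and −5.99). E2F7, a repressor like it, fell with log2 changes of −3.90, −4.20 and −3.05, then −5.14, −3.11 and −2.95 after longer PB; in IMR-32 these were −3.61 and −2.52 without control replicate 5, and at 24 h in SK-N-BE(2)C cells it was −3.07 in replicates 1 and 2 alone and −5.24 in the others. E2F2, an activator, fell likewise (−3.23, −5.88 and −3.56, then −3.26, −1.42 and −2.19), though in SK-N-BE(2)C cells its 24 h change was −2.63 in replicates 1 and 2 alone (adjusted p = 0.063, not called) and −4.02 in the others, and its 7 day change was −3.99 without 7 day replicate 1. RB1 itself fell in SK-N-BE(2)C cells and IMR-32 (−0.64 and −0.69) and differed by −0.50 in SH-SY5Y, just inside the fold limit, which it passed with RLE scaling, DESeq2 (−0.52 each), no filter on low counts (−0.51) or any of 8 single libraries left out (control replicate 2 or 3, 24 h replicate 1, 2 or 3, or 5 day replicate 1, 2 or 5, −0.54 to −0.50).

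Of 14 genes that break down CIP/KIP proteins, 5, 5 and 6 were lower at 24 h and 1, 0 and 1 higher (10.6, 10.5 and 11% of all genes lower and 10.9, 7.87 and 10.5% higher, medians −0.24, −0.083 and −0.16). Those that fell in all lines included SKP2, the ligase subunit that marks p27 for breakdown (−0.53, −0.55 and −0.74 at 24 h, −1.07, −1.36 and −0.71 at the longer time; at 24 h not called in SK-N-BE(2)C cells with library totals alone, −0.50, without 24 h replicate 5, −0.50, or in replicates 1 and 2 alone, −0.43, adjusted p = 0.12, nor in IMR-32 without control replicate 5 or all replicates 5, −0.42 each), PCNA, on which p21 is degraded during S phase (−2.61, −2.93 and −2.53 at 24 h), and DTL, the adaptor for that step (−1.48, −3.31 and −2.29). CDC20, an activator of the mitotic ubiquitin ligase, fell at 24 h (−2.46, −2.35 and −2.93) and after longer PB (−2.17, −1.53 and −1.94). The 1 that rose was RNF123, a subunit of another ligase for p27, named after its values were seen (0.67 in SK-N-BE(2)C cells and 0.596 in SH-SY5Y, adjusted p = 2.1e-05 and 3.1e-07, with 0.46 in IMR-32, inside the fold limit). Proteins were not measured. Among factors known to act on CIP/KIP transcription, 5 of 16, 4 of 13 and 6 of 15 were lower at 24 h and 0, 1 and 0 higher. FOXO3, a forkhead factor that can drive CDKN1B, rose in each line after longer PB (1.401, 0.81 and 0.98, adjusted p = 2.5e-10, 1.9e-04 and 3.9e-09), and SP1 fell at 24 h (−0.69, −0.75 and −0.59). E2F1 fell at 24 h (−1.62, −2.07 and −2.45) and after longer PB (−1.37, −0.73 and −1.57), and so did TP73 (−2.86, −3.03 and −1.999, then −1.96, −1.19 and −1.39). In SK-N-BE(2)C cells the 24 h fall of TP73 was −3.56 without 24 h replicate 2, −2.07 in replicates 1 and 2 alone and −4.11 in the others; its 7 day fall was −1.28 in replicates 1 and 2 alone (adjusted p = 0.050, not called) and −2.72 in the others. TFAP4 was called lower in all lines after longer PB (−1.55, −0.59 and −0.77). MYCN differed from control by 0.31, 0.58 and −0.58 at 24 h, called only in IMR-32, where it rose, and there not without all replicates 5 (0.50, inside the fold limit). Its difference in SH-SY5Y was called with the replicate number as a block (−0.60, adjusted p = 0.042), by DESeq2 (−0.60, adjusted p = 0.038) and without 24 h replicate 2 or 5 day replicate 1 or 5 (−0.72 to −0.61).

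Of 18 regulators of the INK4 locus, 5, 4 and 8 were lower at 24 h (10.6, 10.5 and 11% of all genes) and 1, 3 and 1 higher (10.9, 7.87 and 10.5%). EZH2, the Polycomb methyltransferase known to silence CDKN2A, fell in all lines at 24 h (−1.81, −1.28 and −1.89) and after longer PB (−2.29, −1.13 and −2.04). SUZ12, a subunit of the same complex, fell at 24 h (−0.64, −0.84 and −0.89). KDM6B, which removes the same mark, rose (1.06, 0.88 and 1.003 at 24 h), and ETS1, an activator of CDKN2A, fell (−1.15, −1.61 and −1.26 at 24 h, −2.27, −2.22 and −2.41 at the longer time). TWIST1, a repressor of CDKN2A, fell at the longer time (−0.94, −0.57 and −1.13). Of 11 listed TGF-beta genes, 0 of 11, 0 of 9 and 2 of 10 tested were higher at 24 h and 0, 1 and 2 lower, and SMAD3, which carries the signal to the nucleus, fell in each line after longer PB (−0.52, −2.98 and −0.69), in SK-N-BE(2)C cells inside the fold limit with library totals alone, without 7 day replicate 3 (−0.48 each) and in replicates 1 and 2 alone (−0.49).

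Genes beside CDKN2A on chromosome 9 were followed because CDKN2A fell at the longer time. MTAP, a purine salvage enzyme gene next to it, fell with it in IMR-32 at 5 days (−1.23, adjusted p = 2.0e-07) and in SK-N-BE(2)C cells at 7 days (−0.56, adjusted p = 3.4e-05), and differed by −0.35 in SH-SY5Y. DMRTA1, on the other side of the locus, fell in IMR-32 at 5 days (−2.16, adjusted p = 0.0014) from 3.13 CPM in controls and had no reads in controls of the other lines. Both were named after their values were seen. Beside CDKN1C, the transporter gene SLC22A18 rose in all lines at 24 h (1.48, 0.79 and 1.36), the only 1 called at 24 h of the 6 genes tested beside the INK4 locus or CDKN1C (10.9, 7.87 and 10.5% of all genes were higher), and its call in IMR-32 (adjusted p = 0.049) was lost under other scalings and without the filter on low counts (0.73 to 0.77, adjusted p = 0.060 to 0.070) and without any of 12 single libraries (all but control replicate 4, 24 h replicate 5 and 5 day replicate 5, 0.62 to 0.85, adjusted p = 0.053 to 0.12). After longer PB, 0, 1 and 1 of those 6 were higher and 3, 2 and 1 lower (in the same order of lines; 24.5, 16.6 and 18.6% of all genes higher, 22.3, 15.5 and 17.3% lower).

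Over the 45 libraries, after the mean of each line was taken out of log2(CPM + 1), the genes most like each of 5 members among 11621 were named as a description (CDKN1C, CDKN2A and CDKN2B, below a mean of 1 CPM in some line, were left out). CDKN3 was most like CENPA, AURKB and CCNA2 (Pearson r = 0.99, 0.99 and 0.98) and CDKN2C like DEK, NCAPD2 and DTYMK (0.98, 0.97 and 0.97), mostly genes of mitosis and of DNA synthesis. CDKN1B was most like ARL6IP1, CBX2 and H2AZ2 (0.89 each), and CDKN2D like GNB5, AP1M1 and GNAZ (0.90, 0.89 and 0.88). For CDKN1A the highest values were only 0.62, 0.58 and 0.58 (SHROOM1, DEDD and ZNF654). Between members, r was 0.93 for CDKN2C and CDKN3, 0.80 for CDKN1B and CDKN2C, and 0.097 for CDKN2C and CDKN2D. The libraries share lines, treatments and controls, so these values carry no test.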

How the data were processed

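RNA-seq was performed on 45 libraries (polyA RNA, directional kit, paired-end reads) from SH-SY5Y, SK-N-BE(2)C and IMR-32 cells. The raw counts per gene deposited by the authors were used; per the methods and the submitters' processing notes, reads were trimmed with Trim Galore (0.6.4, minimum phred score 20) and aligned and counted with STAR on hg19 (2.6.1d in the processing notes, another release in the list of resources), whereas for annotation and strand the sources used here give nothing. The authors' CPM tables and their DESeq2 tables, which hold fold changes and p-values of their own comparisons, were not used.

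CPM was computed from library totals. Responses were tested within each line (15 libraries) with edgeR 4.0.16 in R 4.3.3 (TMM scaling, filterByExpr with a minimum count of 10, robust quasi-likelihood F test, Benjamini-Hochberg over all genes tested), and genes were called at adjusted p under 0.05 and an absolute log2 change over 0.5. Differences between lines came from 1 fit to all 45 libraries. On simulated counts of the SK-N-BE(2)C 24 h comparison (14001 genes), 100 of 100 genes changed by a log2 of 1 were recovered, with 9 false calls over both fold sizes simulated. Samples were grouped by their labels. Totals of 13459219 to 25441812 counts put a floor of 3 counts at 0.118 to 0.223 CPM; this and the p-values cover counting error and the spread between these passages only.

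The members and gene lists were chosen with earlier results of these data known. From each list, genes were named when called in the same direction in all 3 lines (up to 3 per direction and time by mean change); MDM2, MYCN, CDK4, CDK6, CCND1 and RB1 by name; and, for each of 5 members at a mean of 1 CPM or more in every line, the 3 genes of highest Pearson r with it. Other genes and lists that the naming rule took in are not reported here. Gene positions and lengths are from GENCODE on GRCh37, and promoters from RefSeq on GRCh38.p14. Alternatives were RLE scaling, library totals alone, no filter on low counts, DESeq2 1.42.0, the replicate number as a block and each library left out in turn.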

Additional observations from a re-analysis of the deposited data

Results flagged for a closer look

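In 4 of 72 combinations of member and group, 1 library lay far from the other 4. Chance marks about 1 in 20 such groups, a share close to this one. All 4 concern CDKN1A, and those in IMR-32 are of replicate 5, which stood apart over all genes. In SK-N-BE(2)C at 7 days, replicate 1 held 28.4 CPM of CDKN1A, far above the others. In IMR-32, replicate 5 held 29.4 CPM in controls and 16.3 CPM at 24 h, the highest of each group, and 4.42 CPM at 5 days, the lowest. The cause was not tested.

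The response to PB differed between lines by a direct test for 11 member and time combinations, all by edgeR over 45 libraries and on the log2 scale. At 24 h the response of CDKN1A in SK-N-BE(2)C cells lay below that in SH-SY5Y (−2.40 ± 0.55, adjusted p = 0.0083). CDKN2D at 24 h in SK-N-BE(2)C cells lay below IMR-32 (−0.84 ± 0.24, adjusted p = 0.024) and SH-SY5Y (−1.05 ± 0.24, adjusted p = 0.0086). CDKN2A at 24 h was higher in response in SK-N-BE(2)C cells (1.26 ± 0.33, adjusted p = 0.024) and IMR-32 (1.20 ± 0.33, adjusted p = 0.030) than in SH-SY5Y.

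At the longer time CDKN2A in SK-N-BE(2)C cells lay above IMR-32 in response (0.91 ± 0.24, adjusted p = 0.0025), and CDKN3 below it (−0.93 ± 0.34, adjusted p = 0.029). CDKN2C in SK-N-BE(2)C cells lay below both IMR-32 (−0.97 ± 0.19, adjusted p = 8.4e-05) and SH-SY5Y (−0.66 ± 0.18, adjusted p = 0.0047). CDKN2B lay above SH-SY5Y there (1.99 ± 0.70, adjusted p = 0.028), on 0 to 11 reads per SH-SY5Y library; it failed the filter on low counts within SH-SY5Y and was in this fit only through SK-N-BE(2)C cells. CDKN1B in IMR-32 lay above SH-SY5Y (0.58 ± 0.10, adjusted p = 3.0e-05). At this time 7 days in SK-N-BE(2)C cells were set against 5 days in the others.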

How the results depend on the processing

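Under RLE scaling, library totals alone, no filter on low counts and DESeq2, the falls of CDKN2C and CDKN3 in every line at both times and the rises of CDKN2D from 24 h on were called each time. Within lines DESeq2 changed the call of no member; it was not run on differences between lines. Without the filter on low counts, calls were lost for CDKN1A at 24 h in SK-N-BE(2)C cells (−1.68, adjusted p = 0.053) and SH-SY5Y (0.67, adjusted p = 0.051), CDKN2D at 24 h in IMR-32 (−0.57, adjusted p = 0.067) and CDKN3 at the longer time between SK-N-BE(2)C and IMR-32 (−0.91, adjusted p = 0.065); more genes were then tested. The 24 h difference of CDKN2D between these lines was lost as well (−0.75, adjusted p = 0.066), so that 0 members in place of 1 differed at 24 h. With library totals alone, CDKN2B at 24 h in SK-N-BE(2)C cells passed the fold limit (0.52).

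The replicate number was used as a block as an alternative. Every same-numbered pair of libraries had a Pearson r over 0.1 in 6 of 9 pairs of groups (lowest 0.108 to 0.369), though differently numbered ones reached 0.509 there, and not in the others (lowest r for control and 24 h in IMR-32, 0.070; control and 5 days in SH-SY5Y, 0.092; 24 h and 7 days in SK-N-BE(2)C cells, −0.0018). These r do not compare whole levels, for which libraries within a group had an r of 0.9855 or more. With the block, CDKN1C at 24 h in IMR-32 was called (0.55, adjusted p = 0.030), as was CDKN1C from 24 h to 5 days in SH-SY5Y (−0.52, adjusted p = 0.025). The block also brought differences in response past the threshold: CDKN2D at the longer time between SK-N-BE(2)C and IMR-32 (−0.55, adjusted p = 0.019), CDKN2C at 24 h between SK-N-BE(2)C and SH-SY5Y (−0.55, adjusted p = 0.026), and CDKN1C (1.05, adjusted p = 0.0022) and CDKN2B (2.21, adjusted p = 0.0496) at the longer time between IMR-32 and SH-SY5Y, so that 3 members in place of 1 differed there. CDKN2B failed the filter on low counts in both of these lines and was in the fit only through SK-N-BE(2)C cells. RLE scaling gave 2 there, CDKN2B included (2.19), as did leaving out the IMR-32 replicates 5, a choice made after seeing the data (2.44); that choice also brought CDKN2C at 24 h between SK-N-BE(2)C and SH-SY5Y past the threshold (−0.55, adjusted p = 0.039). The block changed no other call of a member.

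Leaving out 1 library at a time gave 0 to 1 members differing at 24 h between SK-N-BE(2)C and IMR-32, 0 to 1 between IMR-32 and SH-SY5Y, and 1 to 2 at the longer time between IMR-32 and SH-SY5Y and 1 to 3 between SK-N-BE(2)C and SH-SY5Y. The member added between IMR-32 and SH-SY5Y was CDKN2B each time, which failed the filter on low counts in both lines. Between SK-N-BE(2)C and SH-SY5Y the count of 1 came from the loss of CDKN2B, which failed that filter in SH-SY5Y. SK-N-BE(2)C replicates 1 and 2 alone, another choice made after seeing the data, gave 1423 genes changed at 24 h, against 3022, from fewer libraries; with them CDKN2D at 7 days passed against control (0.53, adjusted p = 0.039).

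Signs turned only for differences that were not called. For CDKN1A at 7 days in SK-N-BE(2)C cells (0.17) the block gave −0.032, replicates 3, 4 and 5 alone (chosen after seeing the data) −0.39 and single libraries left out −0.62 to 0.38. CDKN1A from 24 h to 5 days in IMR-32 (−0.16) ranged from −0.23 to 0.034 and was 0.19 without the replicates 5, and CDKN2A from 24 h to 5 days in SH-SY5Y (0.098) ranged from −0.22 to 0.27. Between SK-N-BE(2)C and IMR-32, CDKN2A at 24 h (0.062) ranged from −0.089 to 0.22 and was −0.011 without the replicates 5, and at the longer time CDKN1A (0.75) ranged from −0.031 to 0.97, CDKN2B (−0.19) from −0.43 to 0.19 and CDKN1C (0.28) from −0.24 to 0.89, with −0.014 under the block. Between SK-N-BE(2)C and SH-SY5Y, CDKN3 at 24 h (0.11) ranged from −0.0036 to 0.20, CDKN2D at the longer time (−0.086) from −0.17 to 0.0062 and CDKN1C at 24 h (−0.032) from −0.46 to 0.57, with 0.012 under RLE scaling, 0.016 with library totals, 0.020 without the filter and 0.00034 under the block. CDK6 at 24 h in SH-SY5Y (0.049) ranged from −0.063 to 0.096. These causes were not tested.
 
The longest single transcript is never longer than all exons merged, so family sums by it can only be as high or higher. With it the order of CDKN2A and CDKN2C per length in SK-N-BE(2)C controls turned (10.3 and 23.4 RPKM against 38.0 and 24.3). Depth limited CDKN1C in SK-N-BE(2)C cells, CDKN2B in IMR-32 and SH-SY5Y, and CDKN2A in SH-SY5Y.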
